A study of Saccharomyces cerevisiae with 12 samples.

Results

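The nuclear genes for the mitochondrial respiratory chain and ATP synthase were examined in budding yeast, Saccharomyces cerevisiae. The 39 genes were taken from a list of subunits of complexes II to V, 2 ATP synthase inhibitors, 3 NADH dehydrogenases and 2 lactate dehydrogenases, and all 39 had a probe on the array, of 5636 genes measured. RNA of each of 3 deletion strains was hybridised against wild-type RNA on 12 two-colour Agilent arrays. The strains were labelled nup84gcr1 null, gcr1 null and nup84 null, and they and the wild type were grown with 2% glucose. Each strain had 4 arrays, with the strain in Cy5 on arrays 1 and 2 and in Cy3 on arrays 3 and 4. They were read as 2 biological samples per strain, sample 1 from arrays 1 and 3 and sample 2 from arrays 2 and 4. The labels do not say which arrays swap the dyes of the same RNA, whether the samples came from separate cultures, whether the wild-type RNA was shared between strains, or the strain background.

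Respiration in yeast passes electrons from NADH, succinate, lactate and other donors to ubiquinone or cytochrome c, and on to oxygen through complexes III and IV. Protons pumped by these complexes drive the ATP synthase, complex V. Yeast has no proton-pumping complex I and uses single-polypeptide NADH dehydrogenases in its place. Cells growing on ample glucose ferment it and keep many of these nuclear genes low by glucose repression, and the Hap2, Hap3, Hap4 and Hap5 complex is a known activator of them when glucose is scarce. Gcr1 is an activator of glycolytic genes, and Nup84 is a structural subunit of the nuclear pore.

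Values are given on the log2 scale, as the ratio of a strain to wild type, after each array was centred on its median over genes. The ratio gives no level in either strain. A gene was called higher (it rose) or lower (it fell) where its limma p, adjusted by Benjamini-Hochberg over all 5636 genes, was under 0.05. The standard error (SE) is pooled over the 3 strains and is the larger of 2 fits with different pairing of arrays, and n = 2 biological samples throughout.

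The deleted genes served as a check of the labels. NUP84 fell to -2.74 ± 0.24 in the strain labelled nup84gcr1 null and -3.19 ± 0.24 in the nup84 null (SE, n = 2; limma adjusted p = 0.000128 and 0.000549). GCR1 went against its label, reading 0.78 ± 0.21 in the strain labelled nup84gcr1 null and 1.08 ± 0.21 in the strain labelled gcr1 null, both called higher (adjusted p = 0.0174 and 0.00453). The position of its probes is not known here, and probes lying beyond the deletion could not check the label. The direction of values in the strain labelled gcr1 null therefore rests on its label and dyes.

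The respiratory genes rose broadly in both strains labelled as lacking GCR1. In the strain labelled nup84gcr1 null 37 of the 39 genes rose, where 20.5% of all genes did, with a median of 1.26. In the strain labelled gcr1 null 31 of 39 rose, where 17.2% of all genes did, with a median of 1.10. In the nup84 null 6 of 39 rose, where 8.61% of all genes did, with a median of 0.42. The median over all genes was 0.03, 0.03 and -0.01 in the same order of strains. No member was called lower in any strain by limma, and none was lower at an unadjusted p under 0.05, while 18.9%, 17.7% and 8.09% of all genes were called lower. At an unadjusted p under 0.05, 37, 35 and 12 members were higher, as were 25.3%, 22.2% and 16.3% of all genes. When arrays were scaled to equal spread, QCR7, COX7, ATP14 and ATP20 did not pass in the strain labelled nup84gcr1 null (adjusted p = 0.0549, 0.0519, 0.0588 and 0.0502), and 13 members rose in the nup84 null, where 17% of all genes then did. The counts also depend on pooling the SE over strains. With each strain fitted alone 28, 35 and 17 members rose, where 12.6%, 22.3% and 20% of all genes did.

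Single arrays were mostly above 0. Ratios lay above 0 on all 4 arrays for 34 of 39 members in the strain labelled nup84gcr1 null, against 24.9% of all genes. They did so for 36 of 39 in the strain labelled gcr1 null, against 30.9% of all genes, and for 29 of 39 in the nup84 null, against 29.5% of all genes. None of the members lay below 0 on all 4 arrays of any strain, where 25.8%, 32.1% and 29.5% of all genes did.

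**Figure D1:**
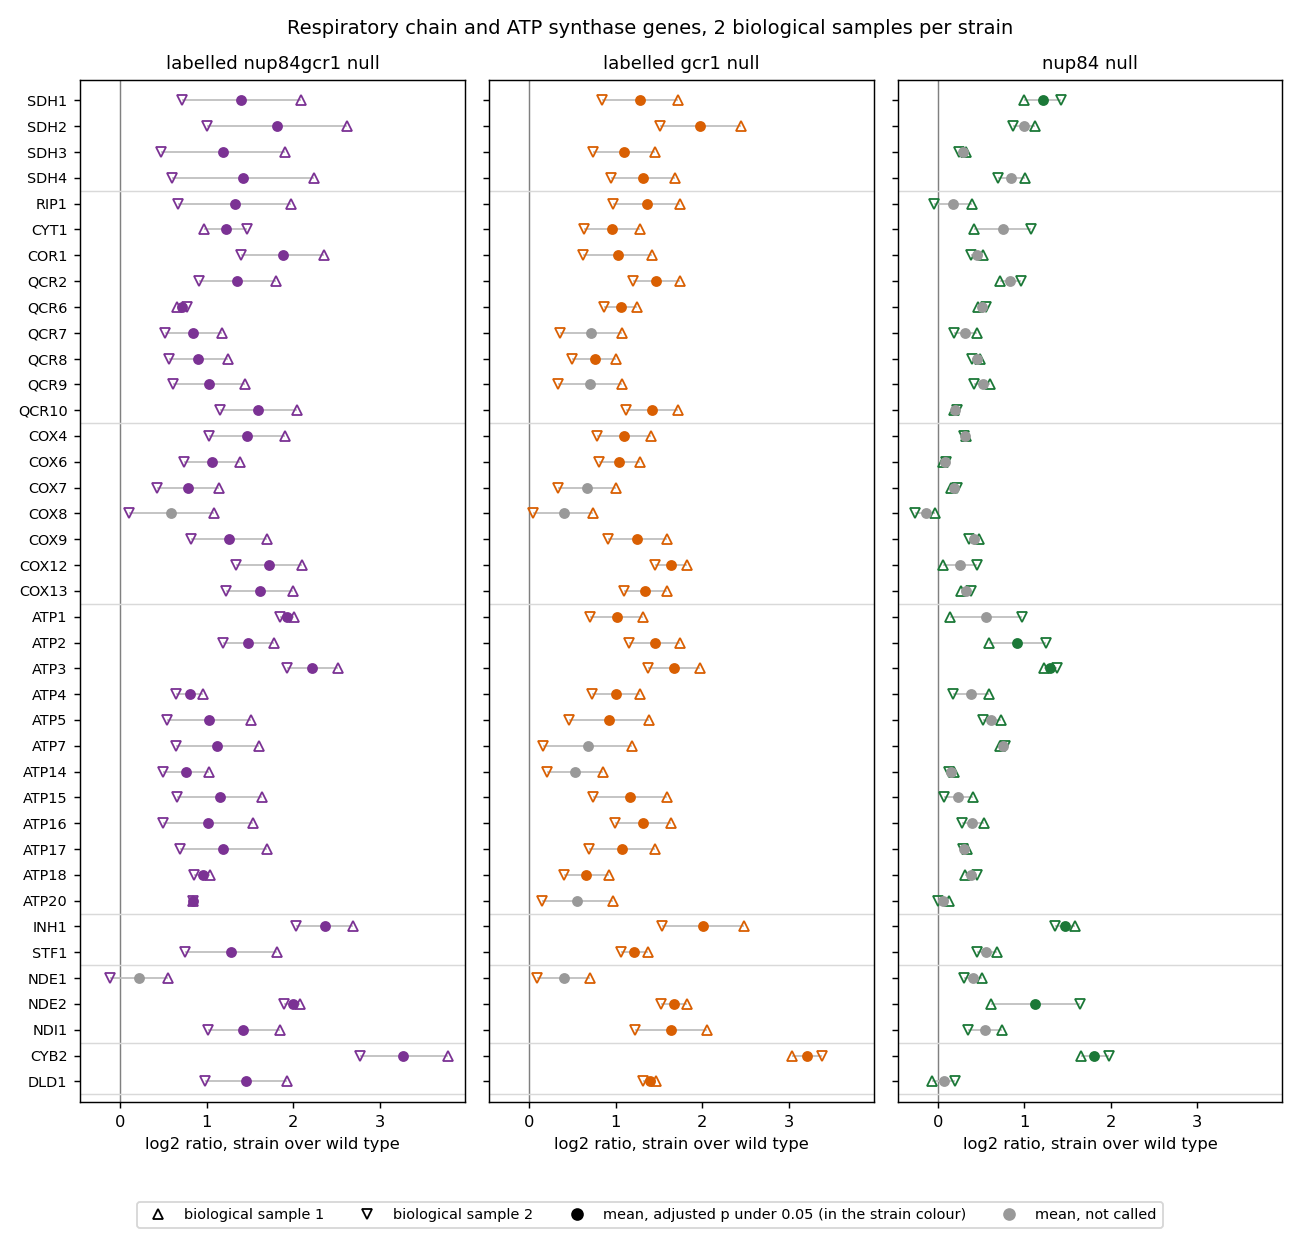
Log2 ratio of strain over wild type (horizontal axis) for the 39 genes, grouped by complex from top to bottom; triangles are the 2 biological samples, filled circles their mean, coloured where the adjusted p was under 0.05. Coloured means number 37 in the strain labelled nup84gcr1 null, 31 in the strain labelled gcr1 null and 6 in the nup84 null.

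The 2 biological samples of a strain were unequal for these genes. Sample 1 was higher than sample 2 for 36 of 39 members in the strain labelled nup84gcr1 null, with a median difference of 0.83, where sample 1 was higher for 56.9% of all genes. In the strain labelled gcr1 null it was higher for 38 of 39, with a median difference of 0.64, where it was higher for 63.0% of all genes. In the nup84 null it was higher for 22 of 39, with a median difference of 0.06, where it was higher for 51.5% of all genes. All 39 members were nevertheless above 0 in both samples of the strain labelled gcr1 null, as were 38 in the strain labelled nup84gcr1 null and 35 in the nup84 null.

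The calls were also counted with 1 sample left out. Without sample 1 of the strain labelled nup84gcr1 null, 22 members and 18.7% of all genes were called higher there. Without its sample 2, 37 members and 23.8% of all genes were, and 36 of these members were among the original calls. Without sample 1 of the strain labelled gcr1 null, 5 members were called higher there, namely COX12, ATP3, INH1, NDE2 and CYB2, beside 6.97% of all genes, and without sample 2, 15 members and 5.25% of all genes were. Without either sample of the nup84 null 0 members were called there, when 32 and 4 of all genes were called higher, and without either sample of the strain labelled nup84gcr1 null 12 members and 17.2% of all genes were called there.

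**Figure D2:**
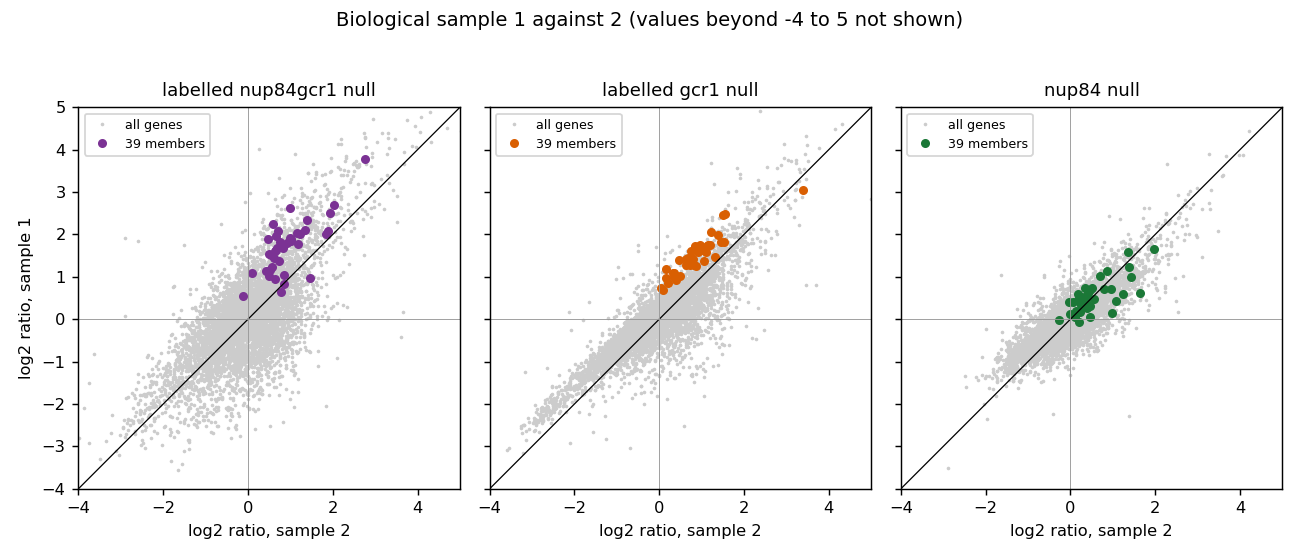
Log2 ratio in biological sample 1 (vertical axis) against sample 2 (horizontal axis) for all genes in grey and the 39 members in colour, with the line of equality; values beyond -4 to 5 are not shown. The members lie above the line for 36 of 39 genes in the strain labelled nup84gcr1 null and 38 of 39 in the strain labelled gcr1 null, and on both sides of it in the nup84 null.

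The dye also moved with the values. Members read higher on the arrays with the strain in Cy5 than on those with it in Cy3 by a median of 0.55 in the strain labelled nup84gcr1 null, 0.33 in the strain labelled gcr1 null and 0.25 in the nup84 null. The same difference over all genes was 0.22, 0.17 and 0.13. Each biological sample averages an array of each orientation, so the dye difference cancels in the sample values to the extent that it adds equally to each array.

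Complex II, succinate dehydrogenase, feeds electrons from succinate to ubiquinone and is shared with the TCA cycle. All 4 of its genes rose in the strain labelled nup84gcr1 null (median 1.41) and in the strain labelled gcr1 null (median 1.30), and 1 of 4 rose in the nup84 null (median 0.93). The samples were far apart in the strain labelled nup84gcr1 null, with medians of 2.16 in sample 1 and 0.65 in sample 2. The pooled SE does not show this gap. SDH2 (YLL041C), the iron-sulfur subunit gene, read 2.77, 1.34, 2.46 and 0.67 on arrays 1 to 4 of the strain labelled nup84gcr1 null, 2.48, 1.57, 2.41 and 1.44 in the strain labelled gcr1 null, and 1.15, 1.08, 1.11 and 0.67 in the nup84 null. Arrays 1 and 3 were the higher pair in the first 2 strains, and all 12 arrays were above 0. Its means were 1.81 ± 0.37, 1.98 ± 0.37 and 1.0 ± 0.37 (adjusted p = 0.00562, 0.00433 and 0.101), which is 3.51-fold and 3.93-fold above wild type in the strains where it rose.

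SDH1 (YKL148C) encodes the flavoprotein with the catalytic site. Its means were 1.40 ± 0.35 in the strain labelled nup84gcr1 null, 1.28 ± 0.35 in the strain labelled gcr1 null and 1.22 ± 0.35 in the nup84 null (adjusted p = 0.0129, 0.0211 and 0.0451). It was the complex II gene called in the nup84 null, where its arrays read 1.08, 1.59, 0.92 and 1.28, and the call there was lost without centring of the arrays (1.21; adjusted p = 0.0526) and when each of its probes had to pass alone (1.22; adjusted p = 0.0559). SDH3 (YKL141W), a membrane anchor gene, had the lowest mean of the complex in each strain, at 1.19 ± 0.33, 1.10 ± 0.33 and 0.29 ± 0.33. It read 2.18, 1.09, 1.62 and -0.16 on the arrays of the strain labelled nup84gcr1 null, so that array 4 alone lay below 0 there. It read 1.60, 0.92, 1.31 and 0.57 in the strain labelled gcr1 null, and 0.45, 0.55, 0.21 and -0.05 in the nup84 null. SDH4 (YDR178W), the other anchor gene, averaged 1.42, 1.32 and 0.85. In the strain labelled nup84gcr1 null samples 1 and 2 read 2.09 and 0.71 for SDH1 and 2.24 and 0.60 for SDH4.

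Complex III, the cytochrome bc1 complex, passes electrons from ubiquinol to cytochrome c. All 9 genes rose in the strain labelled nup84gcr1 null (median 1.22), 7 of 9 in the strain labelled gcr1 null (median 1.03) and 0 of 9 in the nup84 null (median 0.46). COR1 (YBL045C), a core subunit gene, was highest in the strain labelled nup84gcr1 null. It read 2.70, 1.82, 2.01 and 0.98 there, 1.82, 1.01, 1.03 and 0.25 in the strain labelled gcr1 null, and 0.63, 0.67, 0.41 and 0.11 in the nup84 null. The arrays of the last 2 strains overlapped, and the means were 1.88 ± 0.29, 1.03 ± 0.29 and 0.46 ± 0.29 (adjusted p = 0.00131, 0.0234 and 0.306).

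QCR2 (YPR191W), the gene of the other core subunit, led the complex in both single-deletion strains, and its arrays read 2.05, 1.23, 1.55 and 0.58 in the strain labelled nup84gcr1 null, 1.79, 1.22, 1.71 and 1.17 in the strain labelled gcr1 null, and 0.76, 1.07, 0.68 and 0.85 in the nup84 null. All 12 arrays lay above 0, and the means were 1.35 ± 0.27, 1.47 ± 0.27 and 0.84 ± 0.27 (adjusted p = 0.00446, 0.00361 and 0.0622). RIP1 (YEL024W), which encodes the Rieske iron-sulfur protein, read 2.21, 1.09, 1.74 and 0.25 in the strain labelled nup84gcr1 null, 1.86, 1.16, 1.62 and 0.78 in the strain labelled gcr1 null, and 0.38, 0.13, 0.42 and -0.22 in the nup84 null. Its nup84 null samples lay on opposite sides of 0, at 0.40 and -0.04, while its means in the other strains were 1.32 ± 0.33 and 1.36 ± 0.33 (adjusted p = 0.0132 and 0.0133). CYT1 (YOR065W), the cytochrome c1 gene, averaged 1.22, 0.96 and 0.75 and rose in the first 2 strains (adjusted p = 0.00669 and 0.0214).

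The small subunit genes of complex III spread widely. QCR10 (YHR001W-A) averaged 1.59 ± 0.27 in the strain labelled nup84gcr1 null, 1.42 ± 0.27 in the strain labelled gcr1 null and 0.20 ± 0.27 in the nup84 null. QCR6 (YFR033C) was the lowest of the complex in the strain labelled nup84gcr1 null, with arrays at 0.94, 1.24, 0.37 and 0.29 and a mean of 0.71 ± 0.21 (adjusted p = 0.0246), while in the strain labelled gcr1 null it rose to 1.06 ± 0.21 (adjusted p = 0.00479). That difference was not called, at -0.35 (95% interval -1.01 to 0.31; adjusted p = 0.991). QCR7, QCR8 and QCR9 averaged 0.84, 0.90 and 1.03 in the strain labelled nup84gcr1 null and 0.72, 0.76 and 0.70 in the strain labelled gcr1 null, where QCR7 and QCR9 did not pass (adjusted p = 0.0589 and 0.0775). QCR9 (YGR183C), the lowest of the complex there, read 1.59, 0.86, 1.28 and 0.37 in the strain labelled nup84gcr1 null, 1.23, 0.42, 0.93 and 0.23 in the strain labelled gcr1 null, and 0.71, 0.70, 0.50 and 0.14 in the nup84 null.

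Complex IV, cytochrome c oxidase, reduces oxygen. Of its 7 nuclear genes on the list 6 rose in the strain labelled nup84gcr1 null (median 1.26), 5 in the strain labelled gcr1 null (median 1.10) and 0 in the nup84 null (median 0.26), the lowest median of the 7 groups there. COX12 (YLR038C) read 2.34, 1.47, 1.86 and 1.21 in the strain labelled nup84gcr1 null, 1.92, 1.70, 1.72 and 1.21 in the strain labelled gcr1 null, and 0.16, 0.61, -0.04 and 0.31 in the nup84 null. No array of the nup84 null reached the arrays of the other strains. Its means were 1.72 ± 0.25, 1.64 ± 0.25 and 0.26 ± 0.25 (adjusted p = 0.00106, 0.00165 and 0.512), or 3.29-fold and 3.11-fold in the strains where it rose.

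COX8 (YLR395C) marked the other end of complex IV and was called in no strain. It read 1.42, 0.51, 0.74 and -0.31 in the strain labelled nup84gcr1 null, 0.92, 0.29, 0.57 and -0.19 in the strain labelled gcr1 null, and 0.14, -0.09, -0.20 and -0.44 in the nup84 null. Array 4 was the lowest of each strain, and the means were 0.59 ± 0.28, 0.40 ± 0.28 and -0.14 ± 0.28 (adjusted p = 0.132, 0.314 and 0.764). Between these ends, COX4, COX6, COX9 and COX13 rose in both strains labelled as lacking GCR1, with means of 1.06 to 1.61 in the strain labelled nup84gcr1 null and 1.04 to 1.34 in the strain labelled gcr1 null. COX7 (YMR256C) rose to 0.78 ± 0.25 in the first (adjusted p = 0.0386) and averaged 0.67 ± 0.25 in the second (adjusted p = 0.0717). In the nup84 null COX9 (YDL067C) had the highest mean of the complex, 0.42 ± 0.27 (adjusted p = 0.316), with arrays at 0.60, 0.50, 0.36 and 0.22.

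The ATP synthase joins a catalytic F1 head to a membrane-embedded Fo part through a rotor and a stator stalk. All 12 of its genes on the list rose in the strain labelled nup84gcr1 null (median 1.07), 9 in the strain labelled gcr1 null (median 1.01) and 2, ATP2 and ATP3, in the nup84 null (median 0.40). ATP3 (YBR039W), the gene of the rotating gamma subunit, was the highest in each strain. Its arrays read 2.67, 2.32, 2.34 and 1.55 in the strain labelled nup84gcr1 null, 2.10, 1.62, 1.86 and 1.14 in the strain labelled gcr1 null, and 1.25, 1.57, 1.20 and 1.18 in the nup84 null. All 12 arrays lay above 1, and the means were 2.22 ± 0.24, 1.68 ± 0.24 and 1.30 ± 0.24 (adjusted p = 0.000263, 0.00118 and 0.0106).

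ATP1 (YBL099W) and ATP2 (YJR121W) encode the alpha and beta subunits of the F1 head. ATP1 read 2.22, 1.72, 1.81 and 1.97 in the strain labelled nup84gcr1 null, 1.59, 0.74, 1.05 and 0.69 in the strain labelled gcr1 null, and 0.09, 1.08, 0.18 and 0.88 in the nup84 null. The lowest array of the first strain lay above the highest of each other strain, and the means were 1.93 ± 0.26, 1.02 ± 0.26 and 0.56 ± 0.26 (adjusted p = 0.000766, 0.0172 and 0.181). ATP2 rose in all 3 strains, to 1.48 ± 0.26, 1.45 ± 0.26 and 0.92 ± 0.26 (adjusted p = 0.00277, 0.00368 and 0.0451), although its nup84 null samples were unequal at 0.59 and 1.25. ATP16 and ATP15, the delta and epsilon subunit genes of the rotor, rose to 1.01 and 1.15 in the strain labelled nup84gcr1 null and to 1.32 and 1.17 in the strain labelled gcr1 null.

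The stator stalk holds the F1 head still against the rotor. ATP4, ATP5 and ATP7, which encode stator subunits, averaged 0.80, 1.02 and 1.12 in the strain labelled nup84gcr1 null, all called, and 1.0, 0.93 and 0.68 in the strain labelled gcr1 null, where ATP7 did not pass (adjusted p = 0.123). ATP5 did not pass there without centring (0.90; adjusted p = 0.0507). ATP14 (YLR295C), another stator subunit gene, was the lowest of the group in both strains, with means of 0.76 ± 0.24 and 0.53 ± 0.24 (adjusted p = 0.035 and 0.123). Its arrays read 1.04, 0.64, 1.02 and 0.34 in the strain labelled nup84gcr1 null and 0.85, 0.23, 0.85 and 0.19 in the strain labelled gcr1 null. In both strains the higher pair was that of arrays 1 and 3.

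ATP20 (YPR020W) encodes subunit g, which takes part in joining ATP synthase dimers. It read 0.79, 0.82, 0.89 and 0.86 in the strain labelled nup84gcr1 null, the narrowest spread of the ATP synthase genes there, but 0.85, 0.15, 1.10 and 0.15 in the strain labelled gcr1 null and -0.04, -0.26, 0.30 and 0.25 in the nup84 null. It rose in the first strain (0.84 ± 0.24; adjusted p = 0.0227) and was not called in the others, at 0.56 and 0.06. ATP17 and ATP18, for small membrane subunits, rose to 1.19 and 0.95 in the strain labelled nup84gcr1 null and to 1.07 and 0.66 in the strain labelled gcr1 null.

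The inhibitors of the ATP synthase keep it from hydrolysing ATP when the proton gradient collapses. INH1 (YDL181W), the inhibitor gene, read 2.85, 2.04, 2.52 and 2.02 in the strain labelled nup84gcr1 null, 2.57, 1.71, 2.40 and 1.36 in the strain labelled gcr1 null, and 1.67, 1.39, 1.51 and 1.31 in the nup84 null. It was above 1 on every array and rose in all 3 strains, to 2.36 ± 0.28, 2.01 ± 0.28 and 1.47 ± 0.28 (adjusted p = 0.000402, 0.00103 and 0.0117), or 5.12-fold, 4.03-fold and 2.77-fold. STF1 (YDL130W-A), its homologue, read 1.78, 0.93, 1.83 and 0.56, then 1.65, 1.28, 1.08 and 0.84, and 0.80, 0.63, 0.55 and 0.27 in the same strains. It rose to 1.28 ± 0.27 and 1.21 ± 0.27 in the strains labelled as lacking GCR1 (adjusted p = 0.0065 and 0.00922) and averaged 0.56 ± 0.27 in the nup84 null (adjusted p = 0.188).

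The NADH dehydrogenases of yeast pass electrons to ubiquinone without pumping protons, Ndi1 from the matrix side and Nde1 and Nde2 from the outer side of the inner membrane. NDE2 (YDL085W) read 1.86, 1.64, 2.30 and 2.14 in the strain labelled nup84gcr1 null, 1.24, 1.01, 2.43 and 2.03 in the strain labelled gcr1 null, and 0.27, 1.28, 0.97 and 2.01 in the nup84 null. Unlike most members it read higher with the strain in Cy3, and it rose in all 3 strains, to 1.99 ± 0.27, 1.68 ± 0.27 and 1.13 ± 0.27 (adjusted p = 0.000724, 0.00194 and 0.024).

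NDE1 (YMR145C) read 0.80, 0.13, 0.30 and -0.37 in the strain labelled nup84gcr1 null, 0.81, 0.24, 0.59 and -0.06 in the strain labelled gcr1 null, and 0.60, 0.51, 0.42 and 0.12 in the nup84 null. It was called in none of them, with means of 0.22 ± 0.25, 0.40 ± 0.25 and 0.41 ± 0.25 (adjusted p = 0.529, 0.252 and 0.285). In the strain labelled nup84gcr1 null its samples lay on opposite sides of 0, at 0.55 and -0.12. NDI1 (YML120C) rose to 1.42 ± 0.29 in the strain labelled nup84gcr1 null and, in the strain labelled gcr1 null, to 1.64 ± 0.29 (adjusted p = 0.00506 and 0.00316), and averaged 0.55 ± 0.29 in the nup84 null (adjusted p = 0.225).

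The lactate dehydrogenases oxidise lactate in the mitochondrion and pass electrons to cytochrome c. CYB2 (YML054C), for the L-lactate enzyme, had the highest mean of the 39 genes in every strain. Its arrays read 3.74, 2.74, 3.83 and 2.79 in the strain labelled nup84gcr1 null, 2.97, 3.42, 3.11 and 3.35 in the strain labelled gcr1 null, and 1.56, 1.99, 1.74 and 1.97 in the nup84 null. The nup84 null arrays lay below all arrays of the other strains, and the means were 3.27 ± 0.27, 3.21 ± 0.27 and 1.81 ± 0.27 (adjusted p = 0.000114, 0.000123 and 0.00602), or 9.68-fold, 9.28-fold and 3.52-fold above wild type. In the strain labelled gcr1 null it was the 1 member of 39 whose sample 2, at 3.39, exceeded sample 1, at 3.04.

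DLD1 (YDL174C), for the D-lactate enzyme, read 2.22, 1.42, 1.61 and 0.53 in the strain labelled nup84gcr1 null, 1.81, 1.64, 1.13 and 1.01 in the strain labelled gcr1 null, and 0.10, 0.59, -0.22 and -0.18 in the nup84 null. It rose to 1.45 ± 0.26 and 1.40 ± 0.26 in the first 2 strains (adjusted p = 0.00273 and 0.00385) and averaged 0.07 ± 0.26 in the nup84 null (adjusted p = 0.875), with samples at -0.06 and 0.20. Its arrays in the nup84 null overlapped those of the strain labelled nup84gcr1 null by array 4 alone and did not overlap those of the strain labelled gcr1 null.

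Differences between strains were tested in the same fit, and no member was called in any of them. Their medians were 0.11 for the strain labelled nup84gcr1 null minus the strain labelled gcr1 null, 0.78 for the strain labelled nup84gcr1 null minus the nup84 null, and 0.55 for the strain labelled gcr1 null minus the nup84 null. At an unadjusted p under 0.05, limma gave 1, 12 and 8 members in these comparisons, all higher, beside 4.51%, 8.96% and 5.91% of all genes higher at that limit. Of all genes 0% were called in either direction in the first comparison, 0.639% higher and 0.106% lower in the second, and 0.39% higher and 0.124% lower in the third.

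The intervals of these differences were wide. COX12 had the lowest p of the members, at 1.46 (95% interval 0.65 to 2.26; adjusted p = 0.106) between the strain labelled nup84gcr1 null and the nup84 null and 1.38 (0.57 to 2.18; adjusted p = 0.124) between the strain labelled gcr1 null and the nup84 null. CYB2 and DLD1 differed by 1.46 (0.58 to 2.34) and 1.37 (0.55 to 2.20) in the first of these comparisons. Between both strains labelled as lacking GCR1, ATP1 showed the largest difference, 0.91 (0.06 to 1.76; adjusted p = 0.883), while CYB2 differed by 0.06 (-0.82 to 0.94) and SDH2 by -0.16 (-1.37 to 1.04). Without sample 2 of the strain labelled nup84gcr1 null, 21 members and 11% of all genes were called higher there than in the nup84 null. Without either of its samples, 6 members and 3.78% of all genes were called higher in the strain labelled gcr1 null than in the nup84 null.

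**Figure D3:**
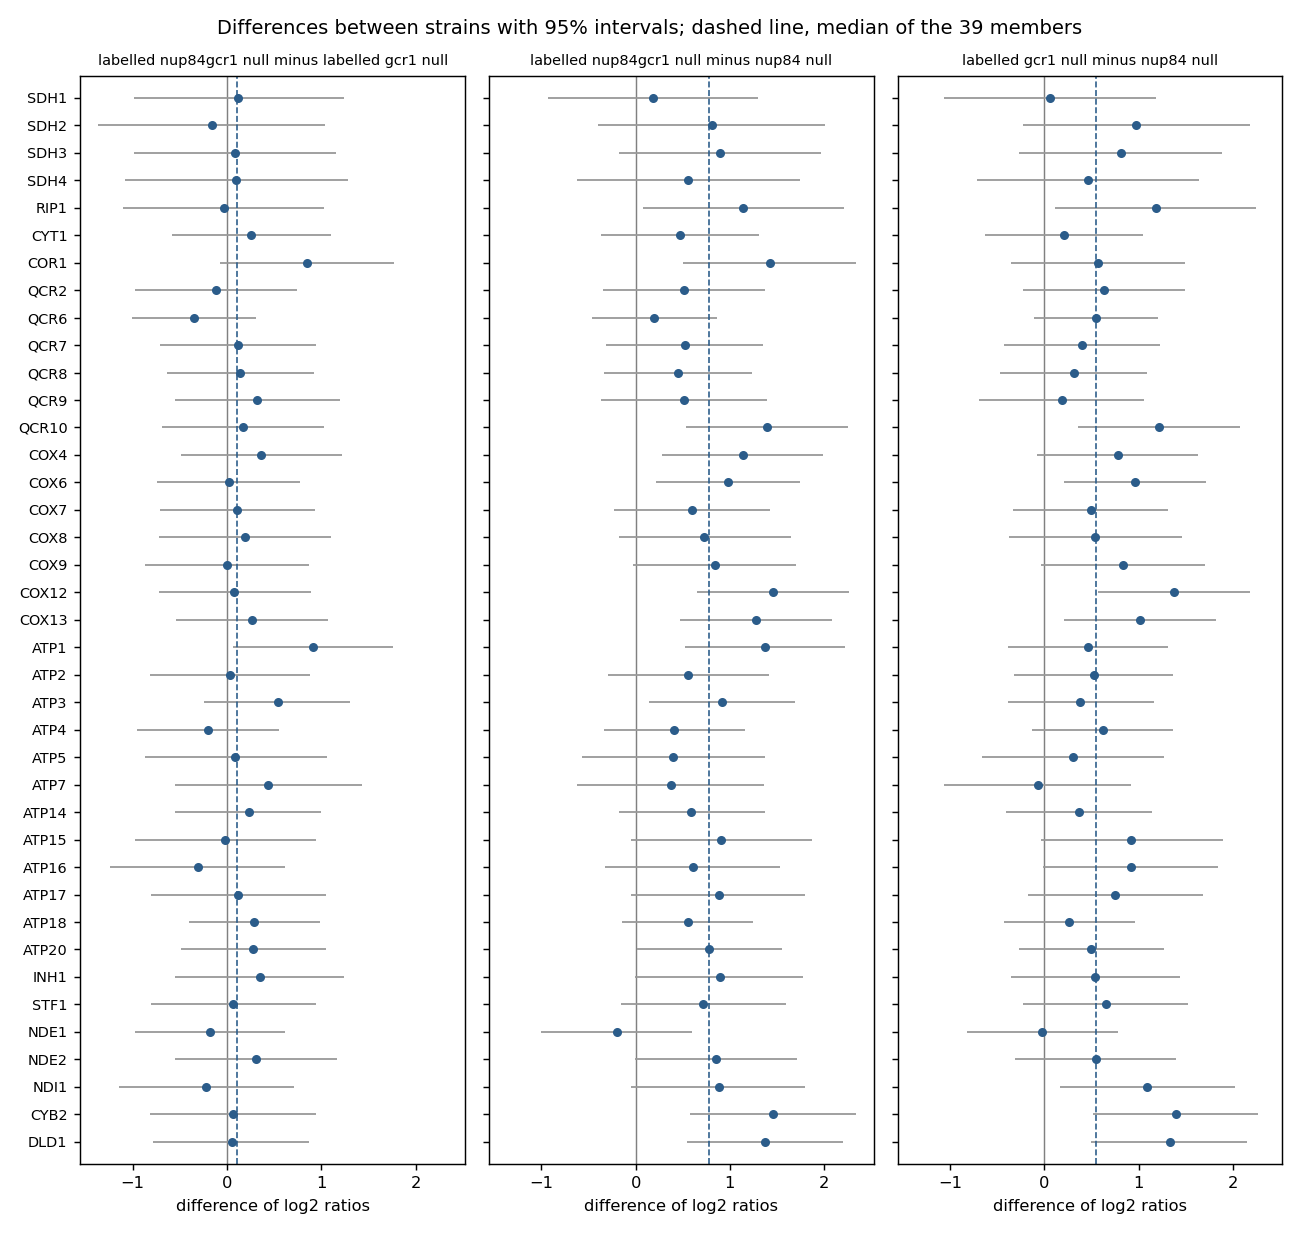
Differences of log2 ratios between strains (horizontal axis) for the 39 genes, with points for the estimate, lines for the 95% interval and a dashed line at the median of the members. The medians are 0.11, 0.78 and 0.55, and the interval excludes 0 for 1, 12 and 8 genes before adjustment.

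The log2 ratio in the strain labelled nup84gcr1 null was also set against the sum of those of both single-deletion strains. It lay below the sum for 33 of 39 members and above it for 6, with a median of -0.31 where the median of all genes was 0.02. How many of all genes lay below the sum was not counted. Means were above 0 for 39 members in the strain labelled gcr1 null and 38 in the nup84 null, unlike genes at large. The median of all genes is therefore not a like comparison, and the count sets no trait of the members apart. By limma 0 members were called and 0% of all genes were called in either direction. At an unadjusted p under 0.05, CYB2 (-1.75; 95% interval -2.83 to -0.68; adjusted p = 0.173), INH1 (-1.12; -2.22 to -0.03; adjusted p = 0.297) and QCR6 (-0.86; -1.67 to -0.05; adjusted p = 0.285) were lower than the sum. At that unadjusted limit 909 of 5636 genes differed from the sum, 494 of them higher and the rest lower. Scale normalization of the arrays moved CYB2 to -2.66 and past the threshold (adjusted p = 0.00842), where 5.31% of all genes were called lower.

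The members also resembled each other over the 12 arrays. Each member's values were correlated with the median of the other 38, as a description, since arrays of a sample share RNA and all members share the sample and dye differences given above. The median correlation was 0.91, and 24 of 39 members had at least 0.9, led by ATP17 and COX9 at 0.99 and COX8 at 0.98. The same correlation was not computed for other genes, so this count does not set the members apart from them. COX8, which was not called in any strain, was thus among the genes closest to the pattern of the group. The lowest were NDE2 at 0.19 and CYT1 at 0.36, followed by NDE1 at 0.56 and QCR6 at 0.60. CYT1 was higher in sample 2 than in sample 1 of the strain labelled nup84gcr1 null, at 1.46 against 0.97, and of the nup84 null, at 1.08 against 0.42.

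Other genes of the pathway were read from lists. Of 19 measured genes for cytochrome c, further subunits and homologues of members, 17 rose in the strain labelled nup84gcr1 null, 13 in the strain labelled gcr1 null and 7 in the nup84 null, with medians of 1.30, 1.14 and 0.76. Shares of all genes that rose were 20.5%, 17.2% and 8.61%. Among the 19, all 7 subunit genes of mitochondrial DNA rose in the strain labelled nup84gcr1 null, 4 in the strain labelled gcr1 null and 3 in the nup84 null. Whether the labelling reads mitochondrial RNA as it does nuclear RNA was not checked. Dyes disagreed for some: with the strain labelled gcr1 null in Cy5 and then Cy3, COX1 read 0.79 and 0.80, then -0.06 and 0.22. COX2 read 0.05 and -0.04, then 0.87 and 0.65, and neither was called there. ATP6 and OLI1, for Fo subunits, reached 2.55 ± 0.23 and 2.37 ± 0.22 in the strain labelled nup84gcr1 null, and COX3, for a core subunit of complex IV, reached 1.70 ± 0.21 in the nup84 null (adjusted p = 0.000139, 0.000136 and 0.00308). DLD3, a D-lactate dehydrogenase homologue outside the mitochondrion, rose to 2.35 ± 0.29 and 2.48 ± 0.29 in the strains labelled as lacking GCR1 and read -0.43 ± 0.29 in the nup84 null. DLD2, its homologue in the mitochondrion, was lowest of the list in the first 2 strains, at 0.23 and 0.25, and was not called.

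The oxygen-regulated pairs of cytochrome c and of subunit 5 of complex IV were unequal in the nup84 null. CYC7 and COX5B, the hypoxic forms, rose to 1.99 ± 0.38 and 1.43 ± 0.21 there (adjusted p = 0.0118 and 0.00531), while CYC1 and COX5A, the aerobic forms, read -0.18 ± 0.29 and -0.29 ± 0.33 (adjusted p = 0.713 and 0.586). All 4 rose in the other strains, where the hypoxic form of each pair also had the higher mean. In the strain labelled nup84gcr1 null CYC7 was at 2.18 against 0.91 for CYC1, and COX5B at 1.85 against 1.18 for COX5A. In the strain labelled gcr1 null these were 1.82 against 1.14 and 2.14 against 1.07. The samples of the strain labelled nup84gcr1 null were unequal. They read 3.10 and 1.26 for CYC7, 1.33 and 0.49 for CYC1, 2.03 and 1.67 for COX5B, and 1.78 and 0.58 for COX5A. The differences within pairs were not tested.

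The genes that build the complexes are read against the 20.5% and 17.2% of all genes that rose in the strains labelled nup84gcr1 null and gcr1 null. In the same strains 18.9% and 17.7% of all genes fell. In the nup84 null 8.61% of all genes rose and 8.09% fell. Of 22 complex IV assembly genes 4 rose in the strain labelled nup84gcr1 null, and 3 rose and 2 fell in the strain labelled gcr1 null, with medians of 0.25 and 0.02. COX20, a chaperone of Cox2, rose to 1.50 ± 0.30 and 1.04 ± 0.30 in them and to 1.04 ± 0.30 in the nup84 null, whereas in the strain labelled gcr1 null COA4 fell to -1.05 ± 0.21 (adjusted p = 0.00515) and PET117 to -0.60 ± 0.20 (adjusted p = 0.0475). Of 7 ATP synthase assembly genes 0 rose in any strain. FMC1 and ATP23 fell to -0.70 each in the strain labelled nup84gcr1 null, and in the strain labelled gcr1 null FMC1 fell to -0.80 (adjusted p = 0.047, 0.029 and 0.032). ATP11 was lowest in the nup84 null, at -0.36, and the highest were ATP10 at 0.49 in the strain labelled nup84gcr1 null and ATP22 at 0.42 and 0.22 in the others, none called.

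Of the complex II assembly genes 4 of 5 rose in the strain labelled nup84gcr1 null and 2 of 5 in the strain labelled gcr1 null, among them SDH8 at 2.17 ± 0.33 and 0.98 ± 0.33. SDH6 rose in all 3 strains, to 1.55 ± 0.23, 1.04 ± 0.23 and 0.89 ± 0.23 (adjusted p = 0.00107, 0.0081 and 0.0307), and was the 1 gene of the list called in the nup84 null, where SDH8 averaged 0.91 ± 0.33. The lowest were SDH7 in the strain labelled nup84gcr1 null and the nup84 null, at 0.31 and -0.01, and TCM62 in the strain labelled gcr1 null, at 0.19, none called. Of 6 complex III assembly genes 1, CBP6, rose in the strain labelled nup84gcr1 null (0.67 ± 0.23; adjusted p = 0.048) and 0 in either other strain, where CBP3 at 0.16 and CBP4 at 0.46 were highest. MZM1 was lowest in the strains labelled nup84gcr1 null and gcr1 null, at -0.22 and -0.60, and CBP6 in the nup84 null, at -0.26, none called. Of 11 coenzyme Q synthesis genes 3 rose in the strain labelled nup84gcr1 null, COQ4, COQ1 and COQ9 (1.25, 0.77 and 0.72), and 0 in either other strain, where COQ4 at 0.98 and COQ5 at 0.59 were highest. The lowest were COQ8 at -0.07, COQ10 at -0.31 and CAT5 at -0.24 in the 3 strains, none called. Shares of all genes that rose were 20.5%, 17.2% and 8.61%. The complex III assembly and coenzyme Q counts in the strain labelled nup84gcr1 null do not set these lists apart from all genes.

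Heme is the cofactor of complexes III and IV and of cytochrome c. Of 8 heme synthesis genes HEM2 and HEM3 fell in all 3 strains, to -1.12 and -0.81 in the strain labelled nup84gcr1 null, -0.80 and -0.65 in the strain labelled gcr1 null and -0.82 and -0.81 in the nup84 null. The limma adjusted p in that order of strains was 0.00532, 0.0256 and 0.0419 for HEM2 and 0.0163, 0.0434 and 0.0343 for HEM3. Beside them, 18.9%, 17.7% and 8.09% of all genes were called lower. HEM1, for the first enzyme of the path, rose to 1.0 ± 0.32 in the strain labelled nup84gcr1 null (adjusted p = 0.0356) and read 0.22 and -0.73 in the others. HEM14 was highest in these, at 0.50 and 0.59, and was not called.

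Genes for the Hap activators were not called in any strain. HAP4, the regulated subunit of the Hap complex, read -0.21 ± 0.30 in the strain labelled nup84gcr1 null, 0.05 ± 0.30 in the strain labelled gcr1 null and 0.63 ± 0.30 in the nup84 null (adjusted p = 0.613, 0.911 and 0.182). Its samples in the strain labelled nup84gcr1 null lay on opposite sides of 0, at -0.85 and 0.43. The mean there is therefore not a steady reading, and the pooled SE does not show this gap. HAP1, HAP2, HAP3 and HAP5 averaged from -0.16 to 0.30 in the strain labelled nup84gcr1 null, from -0.38 to 0.47 in the strain labelled gcr1 null and from -0.53 to 0.11 in the nup84 null.

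**Figure D4:**
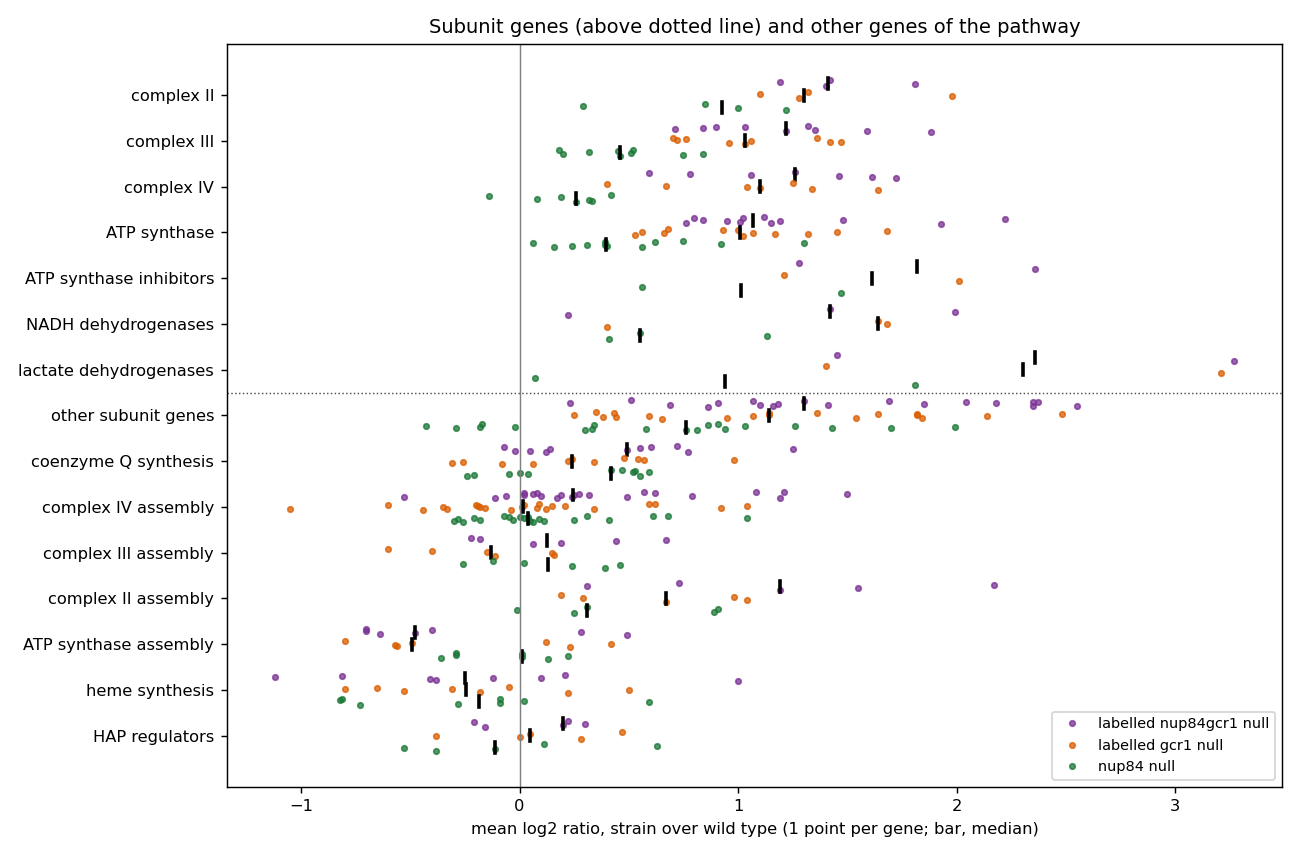
Mean log2 ratio of strain over wild type (horizontal axis) for each gene of the 7 groups of members, above the dotted line, and of the 8 other lists below it; each point is a gene and each bar the median of a list in a strain. The subunit groups have medians of 1.07 to 2.36 in the strain labelled nup84gcr1 null, and the lists of assembly factors of complexes III, IV and V, heme synthesis and Hap regulators have medians of -0.48 to 0.25 there, while further subunit genes (1.30), complex II assembly (1.19) and coenzyme Q synthesis (0.49) lie higher.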

How the data were processed

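The authors deposited a log2 ratio for each probe on each array, red (Cy5) over green (Cy3). Labelling was with an Agilent linear amplification kit, per the labels; their scaling and centring of the log2 ratios are not given in the sources used here. Their range gave the log base, and the labelled dyes the direction. The signs of arrays 3 and 4 were turned. Of 10807 probes 9271 had 1 gene in the platform annotation; the 1536 others were left out, and their medians on turned arrays were -0.70 to -0.74 with the strain in Cy5 and 0.49 to 1.23 with it in Cy3. Across genes, arrays of opposite dyes within a strain correlated at 0.469 to 0.826. Probes of a gene were averaged; of the 39 members 16 had 1 probe and 23 had 2, whose strain means differed by at most 0.231. Array medians ran from -0.162 to 0.099 and were removed, since at least 1 lay beyond 0.1.

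Arrays 1 and 3 and arrays 2 and 4 correlated at 0.735 to 0.826 and were averaged as biological samples. In R 4.3.3, limma 3.58.1 was fitted by lmFit and eBayes with 3 strains together and 3 residual degrees of freedom, both for this pairing and for arrays 1 with 4 and 2 with 3, keeping the larger p and SE. Intervals are 95% and the wider of both fits. P-values measure the spread between 2 samples a strain, which limits precision. Members and lists were chosen with earlier results of these data known. Array values are given for the highest and lowest member of each group and strain, and for members with samples on opposite sides of 0. Of the other lists, the highest and lowest gene per strain, the Hap genes and the CYC and COX5 pairs are named. ATP1, CYT1, QCR10 and ATP2 beyond their group's range, and COQ1, COQ9, HEM3, PET117, ATP23, OLI1 and COX3, were chosen after their values were seen. Whether probes tell homologues such as NDE1 and NDE2 apart was not checked. Channel intensities were not analysed here, and genome coordinates are not printed because the build behind the array is not known here. Figures used matplotlib 3.10.9.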

Additional observations from a re-analysis of the deposited data

Results flagged for a closer look

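Among 117 sets of 4 arrays, 1 for each member and strain, SDH2 in the nup84 null was flagged for an outlying array. Array 4 read 0.67 where the others read 1.15, 1.08 and 1.11, so the gap to the nearest array was 0.853 of the whole range, above Dixon's 95% critical value for 4 values. Chance alone gives such a gap in about 1 in 20 sets of independent values, so this flag singles out no array. The 4 arrays also share samples and dyes, which the critical value does not allow for.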

How the results depend on the processing

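No called value changed direction under the alternatives tried. With arrays 1 and 4, and 2 and 3, taken as dye swaps, 34 members were called higher and 1 lower in the nup84 null, beside 37.3% and 37.1% of all genes. In the differences that pairing gave 10 higher and 1 lower (20.6% and 20.9% of all genes) for the strain labelled nup84gcr1 null minus the strain labelled gcr1 null, 36 higher (30%) for the strain labelled nup84gcr1 null minus the nup84 null, 33 higher (24.6%) for the strain labelled gcr1 null minus the nup84 null, and 2 higher and 19 lower (32.7% and 31.7%) for the difference from the sum. The reported fit keeps the larger p of both pairings. The reported SE pools strains of unequal spread. Over all genes the SD of the difference between samples was 0.807 in the strain labelled nup84gcr1 null, 0.497 in the strain labelled gcr1 null and 0.421 in the nup84 null. With each strain fitted alone, 28 members were called in the first and 35 in the second, beside 12.6% and 22.3% of all genes. The nup84 null count, 6 as reported, was 13 with 4 arrays as replicates, 13 with scale normalization and 17 with each strain fitted alone, beside 17.5%, 17% and 20% of all genes. Those settings and a filter gave calls in differences that had none: 4 arrays as replicates gave 9, 6 and 1 (lower, for the sum) beside 5.48%, 3.41% and 5.68% of all genes, leaving out the 10% most variable genes gave 8, 4 and 1 beside 4.63%, 2.96% and 2.90%, and scale normalization gave 1 for the sum beside 5.31%. That filter removed 564 genes, 5 members among them (SDH1 to SDH4 and RIP1).

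When 1 biological sample of any strain was left out, members called higher ranged from 22 to 37 in the strain labelled nup84gcr1 null, 5 to 37 in the strain labelled gcr1 null and 0 to 12 in the nup84 null. They ranged from 0 to 21 for the strain labelled nup84gcr1 null minus the nup84 null, 0 to 6 for the strain labelled gcr1 null minus the nup84 null, and 0 to 2 (lower) for the difference from the sum. The lone sample of a strain was then assumed to vary like the others. Calls over all genes also moved with the sample left out, as the shares beside several of these counts in the Results show. The ranges are therefore not specific to the members, and whether members moved more than other genes was not tested.

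With the sample number as a replicate block, 37, 34 and 8 members were called higher in the same 3 strains, beside 23%, 19.7% and 11.3% of all genes. In each difference 0 members were called, where at most 0.887% of all genes were called in a direction. The labels do not pair the numbers, and sample differences correlated across genes at 0.55 between the strains labelled nup84gcr1 null and gcr1 null, 0.10 between the strain labelled nup84gcr1 null and the nup84 null, and -0.01 between the strain labelled gcr1 null and the nup84 null. Background correction and a filter on dim probes could not be varied on ratios alone. The causes of these changes were not tested.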
